A study of Saccharomyces cerevisiae BY4741 with 6 samples.

Results

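The genes described here are 10 genes of mating and of the pheromone response of budding yeast, out of 5219 genes in a table of NET-seq (native elongating transcript sequencing) counts. NET-seq sequences the RNA that is still attached to RNA polymerase II, here pulled down by way of FLAG-tagged Rpb3, a subunit of the enzyme, so a count stands for transcription in progress and not for stored mRNA. The 10 genes, found by their systematic names, were MFA1, MFA2, STE2, AGA1, AGA2, SST2, STE12, KAR4, AFB1 and NFG1, and all 10 were counted. They were chosen by the difference between the 2 strains in the counts of these same libraries, which was already known when they were listed. That difference is therefore given below as a description with no test, while the change after transfer to galactose, which is a separate contrast, was tested.

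The strains were BY4741 RPB3-3xFLAG (genotype RPB3-3xFLAG-His3MX6), called the wild type, and the same background with spp1::KanMX6, called the deletion, so both carry the tag on Rpb3. SPP1 encodes a part of COMPASS, the histone H3 lysine 4 methyltransferase complex. Cells of both strains were taken in log phase from glucose medium (YPD), then 15 and 60 min after a move to galactose medium (YPG), for 6 libraries in all and a single one for each combination of strain and condition. Per the labels, galactose cultures were spun down and resuspended before incubation, a step that is not described for the glucose cultures, so the sugar and the handling cannot be told apart. Whether the deletion was 1 isolate or several is not stated in the sources used here. Library totals ran from 1162190 to 4167249 counts, and no library replicates another. SPP1 itself had 324, 69 and 131 counts in the wild-type libraries in glucose and at 15 and 60 min, and 1, 0 and 0 in those of the deletion.

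BY4741 is a haploid of mating type a. Such cells secrete the lipid-modified peptide a-factor and carry the receptor Ste2 for the alpha-factor of the opposite type. Bound receptor frees a G protein that starts a kinase cascade, and the cascade releases the transcription factor Ste12 from its inhibitors. Ste12 also drives part of the basal expression of a-specific and mating genes in cells that have met no pheromone, and it acts with Tec1 on genes of filamentous growth.

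The mating type was checked with receptor genes, compared per length of coding sequence. STE2 ran from 233 to 904 CPM (counts scaled to a common library total, which was corrected by TMM factors) per kb over the 6 libraries. STE3, the receptor gene of alpha cells, ran from 0.58 to 3.82 CPM per kb, and the alpha-agglutinin gene SAG1 from 6.53 to 10.8 CPM per kb. Among 7 markers of a cells, 4 were measured, with a summed level between 1007 and 3010 CPM, and among 4 markers of alpha cells 2 were measured, with a summed level between 16.4 and 22.2 CPM. Neither alpha marker was at 0, and STE3 had 3, 1 and 5 counts in the wild type and 22, 5 and 6 in the deletion, which is below the mean count of 10 needed for a test. AFB1, named for a barrier activity of alpha cells, was not among these markers. It ran from 11.25 to 34.05 CPM per kb, above SAG1. Of 8 genes typical of haploid cells, 5 were measured, and their summed level lay between 505 and 934 CPM. In cultures measured in bulk, fewer cells that transcribe a gene and less transcription per cell cannot be told apart.

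In the order glucose, 15 min and 60 min, the 10 genes together took 0.38%, 0.146% and 0.351% of the wild-type libraries and 0.265%, 0.108% and 0.187% of the deletion libraries. Their share was thus lowest at 15 min in both strains and lower in the deletion in every condition. MFA1, MFA2 and STE2 made up most of these counts. Per length of coding sequence, levels in the wild type in glucose were highest for MFA2 and MFA1, at 9590 and 5072 CPM per kb, then for STE2 at 904 CPM per kb and AGA2 at 581 CPM per kb. NFG1, SST2, KAR4 and STE12 followed, from 226 down to 51.6 CPM per kb. The lowest were AGA1 at 36.3 CPM per kb and AFB1 at 34.1 CPM per kb.

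**Figure D1:**
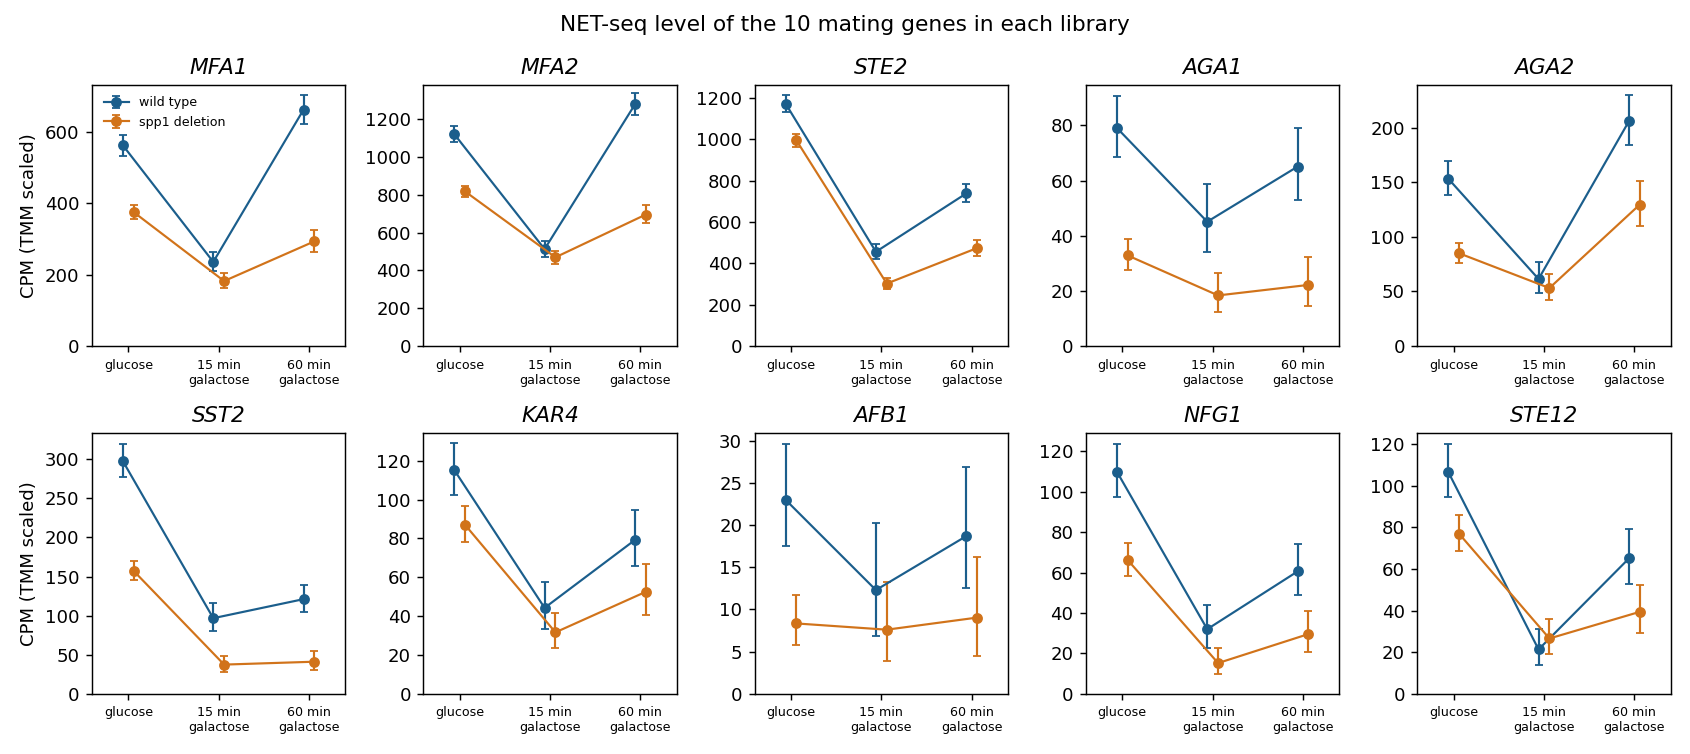
Level of each of the 10 genes in CPM on totals scaled by TMM factors (vertical axis, linear, from 0) in glucose and at 15 and 60 min in galactose (horizontal axis). Points are single libraries joined by strain, bars are exact 95% Poisson intervals of the counts, and the point at 15 min lies below that in glucose for every gene in both strains, within wide bars for AFB1.

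The a-factor is encoded by MFA1 and MFA2, which give near-identical mature peptides from separate precursors. MFA1 (YDR461W, chromosome IV, 1385176 to 1385286 in the R64 assembly, W strand) had 1445, 288 and 1030 counts in the wild type in glucose and at 15 and 60 min, and 1532, 288 and 358 in the deletion. On the CPM scale these are levels of 563, 236 and 664 in the wild type and 376, 182 and 294 in the deletion. The wild type was thus back above its glucose level at 60 min, and the deletion was not. The ratio of wild type to deletion came to 1.5 in glucose, to 1.29 at 15 min and to 2.25 at 60 min. Here and for the genes below, the log2 difference between strains is given with an exact 95% binomial interval that covers counting error only: for MFA1 it was -0.58 (-0.69 to -0.48) in glucose, -0.37 (-0.61 to -0.13) at 15 min and -1.17 (-1.35 to -1.0) at 60 min.

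MFA2 (YNL145W, chromosome XIV, 352414 to 352530, W strand) had 2880, 626 and 1986 counts in the wild type and 3338, 742 and 848 in the deletion. Its levels were 1122, 513 and 1279 CPM in the wild type and 818, 470 and 696 CPM in the deletion. The order of the 6 libraries was the same as for MFA1, with the wild type at 60 min highest and the deletion at 15 min lowest. The strains differed by -0.46 (-0.53 to -0.38) in glucose and by -0.88 (-0.996 to -0.76) at 60 min on the log2 scale, while at 15 min the interval spanned 0 (-0.13, from -0.28 to 0.028). Both precursor genes are short, with coding lengths of 111 and 117 bases, and the sources used here do not give the windows in which reads were counted, so their level per length is uncertain.

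STE2 (YFL026W, chromosome VI, 82580 to 83875, W strand) encodes the alpha-factor receptor. It had 3008, 556 and 1145 counts in the wild type and 4056, 477 and 577 in the deletion, which are levels of 1172, 456 and 738 CPM and of 994, 302 and 474 CPM. Unlike the a-factor genes, it stayed below its glucose level at 60 min in both strains. It showed the smallest difference of the 10 genes in glucose, -0.24 on the log2 scale (-0.31 to -0.17), with -0.59 (-0.77 to -0.41) at 15 min and -0.64 (-0.79 to -0.49) at 60 min.

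The a-agglutinin, by which a cells stick to their partners, is made of an anchor in the cell wall, Aga1, and the binding subunit Aga2. AGA1 (YNR044W, chromosome XIV, 703699 to 705876, W strand) had 203, 55 and 101 counts in the wild type and 134, 29 and 27 in the deletion. Its levels were 79.1, 45.1 and 65.1 CPM in the wild type and 32.8, 18.4 and 22.2 CPM in the deletion. The highest deletion library, in glucose, lay below the lowest wild-type library, at 15 min, so the strains did not overlap. The same held for AFB1 and for none of the other 8 genes, beside 1.66% of all genes tested. Wild type over deletion came to 2.37 in glucose, to 2.38 at 15 min and to 2.85 at 60 min, with a mean log2 difference of -1.34 and an SD of 0.153 over the 3 conditions.

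AGA2 (YGL032C, chromosome VII, 436570 to 436833, C strand) had 394, 75 and 320 counts in the wild type and 347, 84 and 158 in the deletion, or 154, 61.5 and 206 CPM and 85.1, 53.2 and 130 CPM. It stood 1.8-fold higher in the wild type in glucose and 1.59-fold higher at 60 min. At 15 min the 2 libraries lay close together, and the log2 difference of -0.21 had an interval that spanned 0 (-0.68 to 0.26). In both strains AGA2 was highest at 60 min, whereas AGA1 was highest in glucose.

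SST2 (YLR452C, chromosome XII, 1039270 to 1041366, C strand) encodes the protein that speeds up GTP hydrolysis by the G protein and so damps the signal, and it is itself a target of the pathway. It had 764, 118 and 188 counts in the wild type and 641, 59 and 50 in the deletion, or 298, 96.7 and 121 CPM and 157, 37.3 and 41 CPM. It had the widest range of the 10 genes, with 7.79-fold between its highest library, the wild type in glucose, and its lowest, the deletion at 15 min. The wild-type library in glucose stood apart, and the deletion library in glucose lay above the wild-type libraries in galactose. Within each condition the wild type exceeded the deletion, 1.89-fold in glucose, 2.55-fold at 15 min and 2.91-fold at 60 min. In log2 units the difference was -0.92 (-1.08 to -0.77), -1.35 (-1.85 to -0.91) and -1.54 (-2.04 to -1.11) in that order.

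STE12 (YHR084W, chromosome VIII, 274174 to 276240, W strand) encodes the transcription factor at the end of the cascade. It had 274, 26 and 101 counts in the wild type and 314, 42 and 48 in the deletion, or 107, 21.3 and 65.1 CPM and 77, 26.6 and 39.4 CPM. At 15 min the deletion was the higher library, the single case among the 10 genes and 3 conditions, with a log2 difference of 0.31 and an interval that spanned 0 (-0.42 to 1.08). The log2 difference was -0.47 (-0.71 to -0.23) in glucose and -0.71 (-1.25 to -0.21) at 60 min. KAR4 (YCL055W, chromosome III, 27929 to 28936, W strand) encodes a factor that acts with Ste12 on genes of nuclear fusion. It had 296, 54 and 123 counts in the wild type and 355, 50 and 64 in the deletion, or 115, 44.3 and 79.2 CPM and 87, 31.6 and 52.5 CPM. The difference between strains was the most even of the 10 genes, with a mean of -0.49 log2 units and an SD of 0.0918 over the 3 conditions.

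AFB1 (YLR040C, chromosome XII, 228908 to 229582, C strand) is named for a barrier activity of alpha cells against a-factor. It had the fewest counts of the 10 genes, with 59, 15 and 29 counts in the wild type and 34, 12 and 11 in the deletion, or 23, 12.3 and 18.7 CPM and 8.33, 7.6 and 9.03 CPM. As for AGA1, the libraries of the strains did not overlap, but the counting intervals of the closest libraries did. For AFB1 these were 6.88 to 20.27 CPM in the wild type at 15 min and 4.51 to 16.15 CPM in the deletion at 60 min. For AGA1 they were 33.95 to 58.67 CPM in the wild type at 15 min and 27.52 to 38.9 CPM in the deletion in glucose. The interval of the log2 difference lay below 0 in glucose (-1.36, from -2.12 to -0.83), reached almost to 0 at 60 min (-0.97, from -2.20 to -0.0051) and spanned 0 at 15 min (-0.63, from -1.92 to 0.50). NFG1 (YLR042C, chromosome XII, 229966 to 230451, C strand), named as a negative regulator of filamentous growth, lies 383 bases upstream of AFB1 on the same strand. It had 282, 39 and 94 counts in the wild type and 270, 24 and 36 in the deletion, or 110, 32 and 60.6 CPM and 66.2, 15.2 and 29.6 CPM. In the wild type it stood 1.65-fold above the deletion in glucose, 2.04-fold at 15 min and 2.02-fold at 60 min. Whether reads that run on from NFG1 reach the window of AFB1 was not tested. NFG1 at 15 min stood at 29.1% of its glucose level in the wild type and 23% in the deletion, whereas AFB1 stood at 53.5% and 91.1%.

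Over the 10 genes, the interval of the difference between strains lay below 0 for 10 in glucose, 5 at 15 min and 10 at 60 min, where 15.7%, 12.0% and 13.9% of the 5186 genes tested had such an interval. Since the genes were listed with this difference known, nothing is read from these counts. In the same order of conditions, the median log2 difference of the 10 genes was -0.65, -0.53 and -0.93, beside medians over all genes tested of 0.0082, -0.00082 and -0.00047. AGA1 and SST2 had the lowest means over the conditions (-1.34 and -1.27) and STE12 the highest (-0.29). In 9 of the 10 genes the deletion was lower in all 3 conditions, beside 17.9% of all genes tested, and STE12 was the exception.

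**Figure D2:**
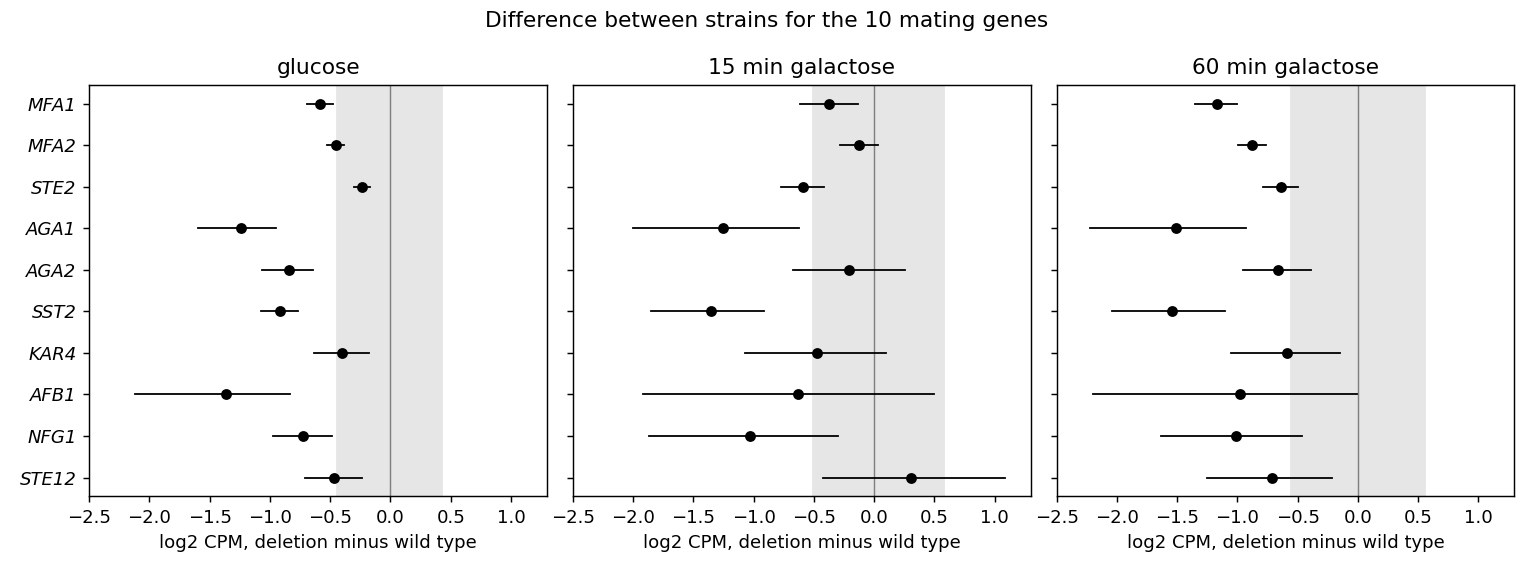
Log2 difference of CPM, deletion minus wild type (horizontal axis), for each of the 10 genes in glucose and at 15 and 60 min in galactose. Points are the ratio of 2 libraries, lines are exact 95% binomial intervals of counting error, and the grey band holds the 5th to 95th percentile of all genes tested. At 60 min all 10 points lie below the grey band, the nearest being KAR4 at -0.58, whereas at 15 min STE12 lies above 0.

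The transfer to galactose was tested with edgeR's quasi-likelihood test on all 6 libraries, with the 2 strains standing in for replicates, and with Benjamini-Hochberg adjustment over the 5186 genes tested. In this test 9 of the 10 mating genes fell at 15 min against glucose and 0 rose, while 38.0% of all genes tested fell and 37.1% rose. With an unadjusted p under 0.05, which 37.9% of all genes met as higher and 38.8% as lower, and in limma and DESeq2, 0 of them rose as well and 9 fell. The median fitted change of the 10 genes was -1.28 log2 units, beside -0.013 over all genes. TMM scaling takes most genes as unchanged, yet 75.2% of genes passed, so these changes are relative to the rest of each library. The p-values rest in part on how far the response to the transfer differed between the strains, since a constant strain difference is fitted. They do not measure the spread between cultures of a strain. This residual has 2 degrees of freedom per gene, beside 13 prior degrees of freedom that edgeR drew from all genes tested. The variance used for each gene thus came more from the other genes than from its own residual.

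The strongest falls at 15 min were those of NFG1, STE12 and SST2. NFG1 fell by 1.93 ± 0.20 on the log2 scale (edgeR adjusted p = 3.3e-07), STE12 fell by 1.88 ± 0.22 (edgeR adjusted p = 1.16e-06) and SST2 fell by 1.83 ± 0.17 (edgeR adjusted p = 5.84e-08). The value after ±, which takes the place of a standard error, is the absolute log2 change over the root of the F statistic. STE2 fell by 1.55 ± 0.18 (edgeR adjusted p = 1.03e-06) and KAR4 fell by 1.42 ± 0.17 (edgeR adjusted p = 1.48e-06). Of the a-factor genes, MFA1 fell by 1.14 ± 0.18 (edgeR adjusted p = 3.72e-05) and MFA2 fell by 0.95 ± 0.20 (edgeR adjusted p = 4.11e-04). The agglutinin genes AGA2 (log2 -0.998 ± 0.17, edgeR adjusted p = 6.98e-05) and AGA1 (log2 -0.83 ± 0.21, edgeR adjusted p = 0.00214) completed the 9. AFB1 did not pass (log2 -0.57 ± 0.36, edgeR adjusted p = 0.162), with 15 and 12 counts at 15 min.

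From 15 to 60 min, 7 of the 10 genes rose in the same edgeR test and 0 fell, while 20.4% of all genes tested rose and 16.1% fell. With library totals as the scaling, 1436 of all genes rose and 548 fell, beside 1056 and 835. The counts of members were also 7 and 0 in limma, in DESeq2 and with an unadjusted p under 0.05, which 24.6% of all genes met as higher and 20.9% as lower. AGA2 rose most, by 1.51 ± 0.18 log2 units (edgeR adjusted p = 1.06e-05), followed by MFA1 (1.11 ± 0.19, edgeR adjusted p = 2.77e-04), STE12 (1.08 ± 0.26, edgeR adjusted p = 0.00378), MFA2 (0.95 ± 0.20, edgeR adjusted p = 0.00162) and NFG1 (0.95 ± 0.24, edgeR adjusted p = 0.00577). KAR4 (0.80 ± 0.19, edgeR adjusted p = 0.00439) and STE2 (0.67 ± 0.18, edgeR adjusted p = 0.00775) rose as well. SST2 (0.28, edgeR adjusted p = 0.281), AGA1 (0.45, edgeR adjusted p = 0.155) and AFB1 (0.43, edgeR adjusted p = 0.44) did not pass. Without the wild-type library at 15 min, the level at 15 min came from the deletion library alone. The fitted rises were then 0.68 for MFA2, 0.76 for STE2 and 0.67 for STE12, and the calls of these genes were lost. Without the wild-type library at 60 min KAR4 (edgeR adjusted p = 0.0508) and NFG1 (edgeR adjusted p = 0.0814) were lost, and without the deletion library at 15 min STE2 (edgeR adjusted p = 0.139). AGA2 and MFA1 passed whichever library was left out.

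At 60 min, 5 genes stood lower than in glucose in the same edgeR test and 1 higher, while 33.9% of all genes tested were lower and 32.3% higher. SST2 was lowest, at log2 -1.55 ± 0.16 (edgeR adjusted p = 4.73e-07), then NFG1 (log2 -0.98 ± 0.18, edgeR adjusted p = 1.66e-04), STE2 (log2 -0.87 ± 0.18, edgeR adjusted p = 4.1e-04), STE12 (log2 -0.80 ± 0.19, edgeR adjusted p = 0.00164) and KAR4 (log2 -0.62 ± 0.15, edgeR adjusted p = 0.00218). AGA2, the binding subunit, was higher by 0.51 ± 0.15 (edgeR adjusted p = 0.00647), a call that was lost with DESeq2 (adjusted p = 0.0676) and without the deletion library in glucose (edgeR adjusted p = 0.143). MFA1 (log2 -0.032, edgeR adjusted p = 0.88), MFA2 (log2 -0.0065, edgeR adjusted p = 0.978), AFB1 (log2 -0.14, edgeR adjusted p = 0.727) and AGA1 (log2 -0.38, edgeR adjusted p = 0.103) did not pass. The comparisons at 15 and 60 min share the glucose libraries, so they are not independent of each other.

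For the a-factor genes the change to 60 min had opposite signs in the strains. In the wild type MFA1 at 60 min stood at 118% of its glucose level (log2 0.24, counting interval 0.12 to 0.35) and MFA2 at 114% (log2 0.19, 0.11 to 0.27). In the deletion MFA1 stood at 78.3% (log2 -0.35, -0.52 to -0.19) and MFA2 at 85.1% (log2 -0.23, -0.34 to -0.12). The difference in response, deletion minus wild type, was -0.59 for MFA1 and -0.42 for MFA2, with counting errors (standard errors from the counts alone) of 0.10 and 0.070. This difference was not tested, since there is no second library of any strain and condition.

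SST2 stood at 40.7% of its glucose level at 60 min in the wild type and at 26.1% in the deletion (difference in response -0.62, counting error 0.24). For STE2 the values were 62.9% and 47.6% (-0.40, counting error 0.081). AGA2 stood at 134% and 153%, with a difference in response of 0.18 and a counting error of about the same size (0.18). Over the 10 genes the response at 60 min was lower in the deletion for 8, the exceptions being AGA2 and AFB1. The median was -0.28 beside -0.026 over all genes, of which 53.2% had a lower response in the deletion. A difference in response equals the strain difference in galactose minus that in glucose. Since the genes were chosen by strain differences in these libraries, nothing is read from such counts and medians at 60 or 15 min. At 15 min the response was lower in the deletion for 5 of the 10 genes and for 51.1% of all genes, with medians of 0.10 and -0.010. STE12 showed the largest of the 10 differences there, with a level at 20% of glucose in the wild type and 34.5% in the deletion (0.77, counting error 0.38).

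**Figure D3:**
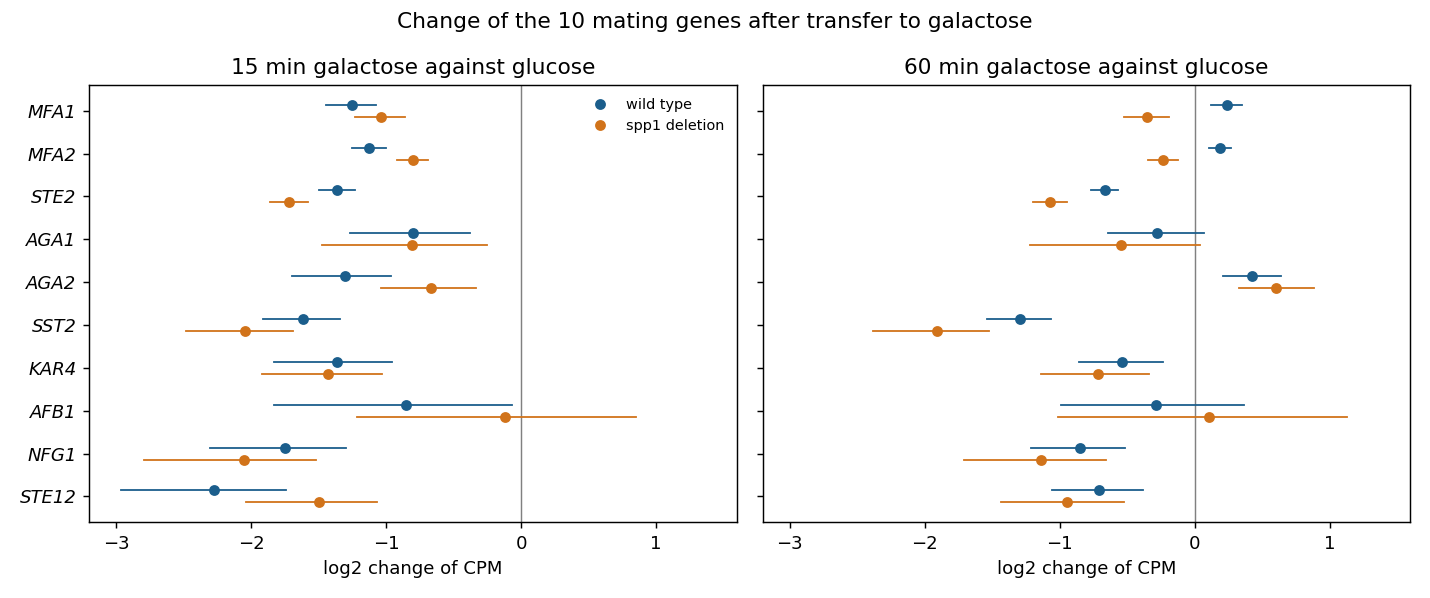
Log2 change of CPM (horizontal axis) of each of the 10 genes from glucose to 15 min and to 60 min in galactose, by strain. Points are ratios of 2 libraries and lines are exact 95% binomial intervals of counting error. At 15 min all 20 points lie below 0, and at 60 min the wild type lies above 0 and the deletion below 0 for MFA1 and MFA2.

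Other genes of mating were taken from 6 lists with 68 genes, of which 48 were measured and 47 tested, and 20 were not analysed here, among them FUS1, BAR1, STE6, FAR1 and FUS3. In the difference between strains, 1 of the 47 genes passed edgeR's test, TEC1, which was lower in the deletion, and 0 were higher, while 0.733% of all genes tested were lower and 1.10% higher. With an unadjusted p under 0.05, 8 of the 47 were lower and 2 higher, while 7.52% of all genes tested were lower and 6.04% higher. TEC1 encodes the partner of Ste12 on genes of filamentous growth. It had 431, 457 and 805 counts in the wild type and 453, 393 and 346 in the deletion, or 168, 375 and 519 CPM and 111, 249 and 284 CPM. Each deletion library lay below the wild-type library of the same condition, and the fitted difference was -0.69 ± 0.11 log2 units (edgeR adjusted p = 0.00359), and limma and DESeq2 also called TEC1 alone. The genotype p-values here use the 3 conditions in place of replicates, and the lists were drawn up with earlier results of these data known. TEC1 passed in every alternative run, including fits without each condition and without each library in turn.

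After the transfer TEC1 rose by 1.16 ± 0.14 log2 units at 15 min (edgeR adjusted p = 1.79e-06), when STE12 fell, and stood 1.5 ± 0.14 above glucose at 60 min (edgeR adjusted p = 1.45e-07). Per length of coding sequence, wild-type TEC1 stood at 115 CPM per kb in glucose and at 355 CPM per kb 60 min after the move, and the deletion stood at 76 and 194 CPM per kb. STE12 went from 51.6 to 31.5 and from 37.2 to 19.1 CPM per kb over the same interval.

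**Figure D4:**
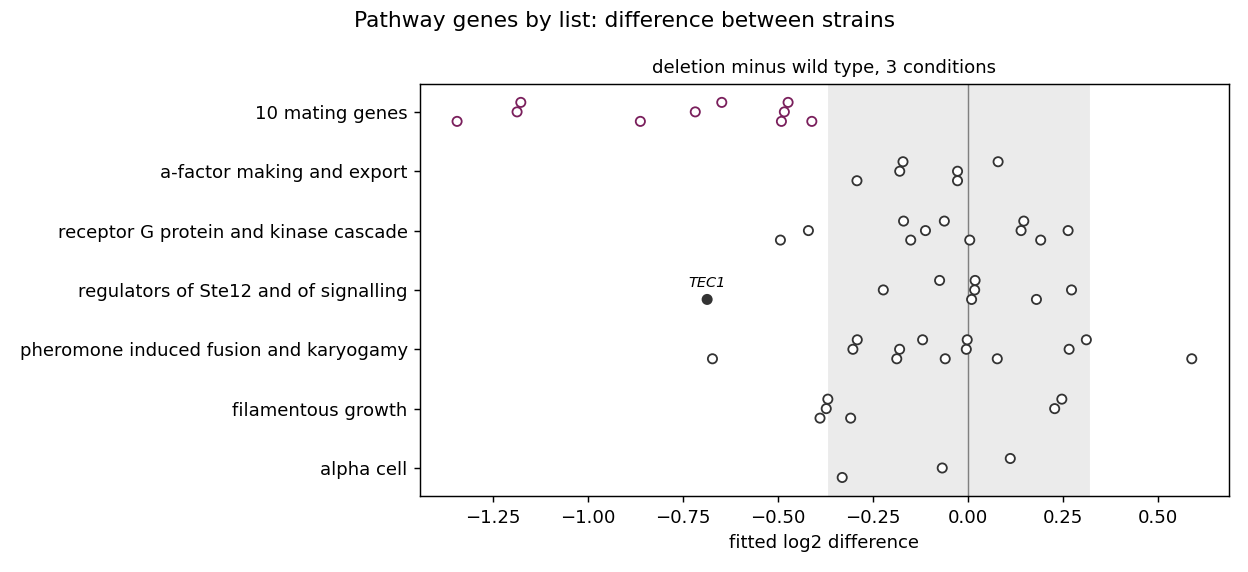
Fitted log2 difference, deletion minus wild type (horizontal axis), of the 10 genes and of the genes of 6 pathway lists outside them (rows). Filled points are list genes that passed edgeR's test. The 10 genes were in the fit but are drawn open in purple whatever their p-value, since they were chosen by this difference. The vertical offset within a row only separates points, and the grey band holds the 5th to 95th percentile of all genes. Among the list genes TEC1 is the only filled point, at -0.69.

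Of 6 tested genes of a-factor making and export, 0 passed edgeR's test between strains and 0 had an unadjusted p under 0.05. Of 11 genes of the G protein and cascade 0 passed, with 1 higher and 2 lower at an unadjusted p under 0.05, and limma and DESeq2 likewise called 0 in both lists. Of 6 filamentous growth genes 0 passed in edgeR, limma or DESeq2, and 4 were lower at an unadjusted p under 0.05, a threshold that 7.52% of all genes met as lower. With library totals as the scaling, or without the 15 min libraries, KSS1, which encodes a kinase of the filamentation branch, and GIC2, an effector gene of the polarity GTPase Cdc42, were called lower as well. Their fitted differences in the chosen fit were -0.49 (edgeR adjusted p = 0.084) and -0.67 (edgeR adjusted p = 0.0801). GIC2 had 205 counts in the wild type and 55 in the deletion at 60 min, and 66 and 86 at 15 min. The medians of the 6 lists ran from -0.34 for filamentous growth to 0.013 for regulators of Ste12 and of signalling, beside 0.0013 over all genes.

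At 15 min 18 of the 47 genes fell (38.3%) and 13 rose (27.7%) in edgeR's test, beside 38.0% and 37.1% of all genes. In the G protein and cascade list 4 of 11 fell, STE20, the kinase that starts the cascade (log2 -1.75), GPA1, the alpha subunit of the G protein (log2 -1.73), KSS1 (log2 -1.53) and STE4, the beta subunit (log2 -0.94). In the same list 3 rose, the adaptor gene STE50 (0.60), the gene CDC24 for the exchange factor of Cdc42 (0.36) and the kinase gene STE7 (0.32). Of these rises limma called 2, without STE7 (adjusted p = 0.0607), and DESeq2 called 1, without STE7 (adjusted p = 0.225) and CDC24 (adjusted p = 0.164). Of 8 regulators 2 fell, the phosphatase genes MSG5 (log2 -2.36) and PTP3 (log2 -1.37), and 3 rose, PTP2, another phosphatase gene (1.34), TEC1 (1.16) and AKR1 (0.72).

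Of 13 fusion and karyogamy genes 6 fell, with the largest falls in GIC2 (log2 -2.05), the kinesin gene KAR3 (log2 -1.82) and the polarity gene SPA2 (log2 -1.64), and 3 rose, PRM8 (1.88), RVS161 (0.99) and the formin gene BNI1 (0.48). Of 6 filamentous growth genes 4 fell and 0 rose, counts that were the same with an unadjusted p under 0.05 and in limma and DESeq2, and the list median was -1.49. Those that fell were SVS1 (log2 -1.95), the osmosensor gene SHO1 (log2 -1.88), the G1 cyclin gene CLN1 (log2 -1.72) and MSB2 (log2 -1.25), which encodes the mucin of the filamentation branch. Of 6 genes of a-factor making and export 3 rose, the protease genes STE24 (0.79) and STE23 (0.69) and the farnesyltransferase subunit gene RAM1 (0.45), and 1 fell, the methyltransferase gene STE14 (log2 -0.56). Of 3 tested genes of the alpha cell list, the protease genes STE13 rose (1.31) and KEX2 fell (log2 -0.52), the latter not called by DESeq2 (adjusted p = 0.0746). RAM1 (adjusted p = 0.142) and BNI1 (adjusted p = 0.0592) were not called by DESeq2 either, which in all called 9 rises and 16 falls among the 47 genes.

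**Figure D5:**
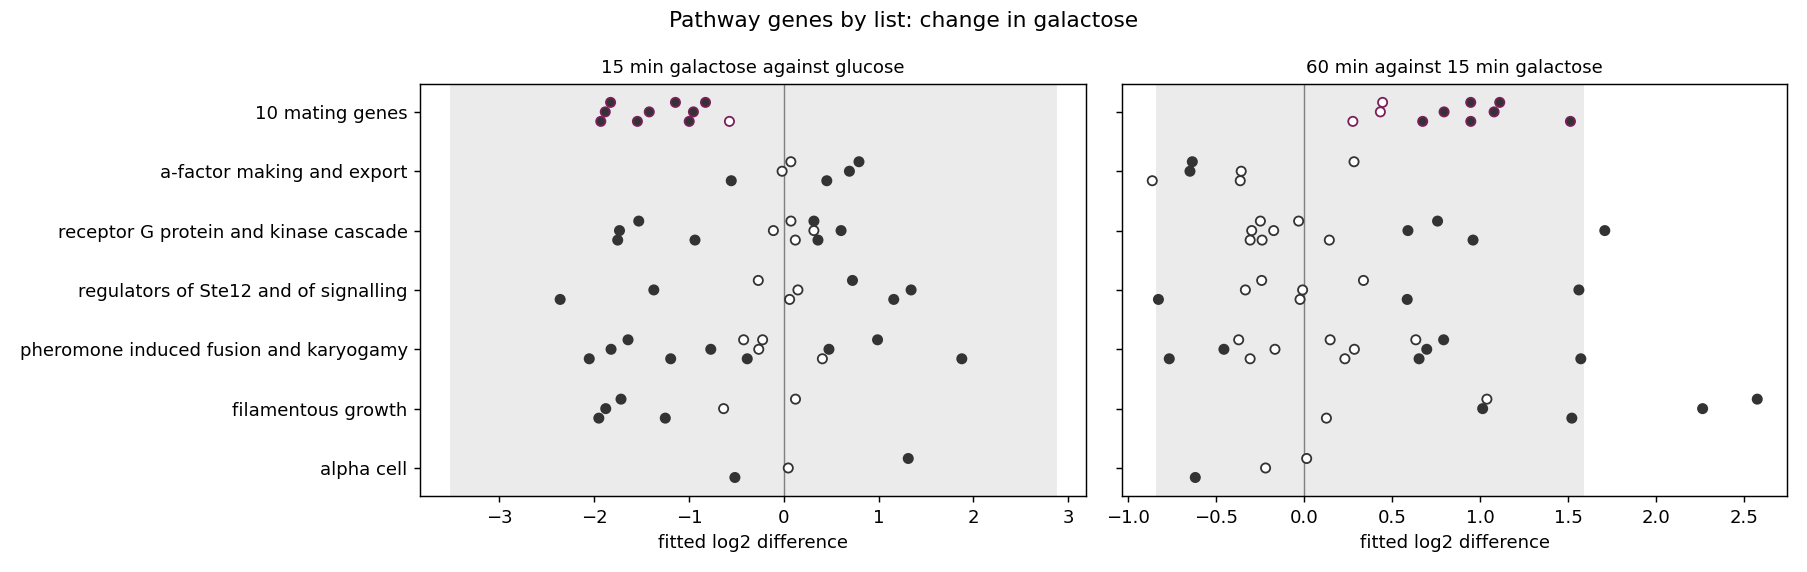
Fitted log2 change (horizontal axis) at 15 min against glucose and at 60 min against 15 min, for the 10 genes and for the genes of 6 pathway lists outside them (rows). Filled points passed edgeR's test, the vertical offset within a row only separates points, and the grey band holds the 5th to 95th percentile of all genes. The 10 genes sit below 0 on the left and above 0 on the right, where CLN1 and SVS1 are the farthest points to the right at 2.57 and 2.26.

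From 15 to 60 min 14 of the 47 genes rose (29.8%) and 6 fell (12.8%) in edgeR's test, beside 20.4% and 16.1% of all genes, and DESeq2 called 10 rises and 4 falls. The rises included 4 of 6 filamentous growth genes and 4 of 11 genes of the G protein and cascade, with GPA1 at 1.71 and STE4 at 0.76. The receptor gene STE2 and the genes of the alpha and beta subunits of its G protein thus each fell at 15 min and rose again by 60 min. At 60 min against glucose GPA1 (log2 -0.026, edgeR adjusted p = 0.859) and STE4 (log2 -0.18, edgeR adjusted p = 0.284) did not pass, whereas STE2 was lower.

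The 10 genes lie on 7 chromosomes, and none overlaps another annotated gene of the reference. Measured neighbours within 500 bases were read for comparison. Outside the pair AFB1 and NFG1 these were TFB3 and CMI8 beside MFA1, YNL146W beside MFA2, BST1 beside STE2, PET494 beside AGA1 and RIF2 beside SST2. No neighbour passed edgeR's test for a difference between strains, with fitted values from -0.32 for BST1 to 0.12 for YNL146W. Only 1.83% of all genes tested passed it, so the lack of calls among so few neighbours says little. For the changes at 15 min given next, 37.1% of all genes tested rose and 38.0% fell. CMI8, 237 bases from MFA1, rose by 2.36 log2 units at 15 min (edgeR adjusted p = 6e-10) while MFA1 fell, and PET494, 262 bases from AGA1, rose by 1.47 (edgeR adjusted p = 4.27e-08) while AGA1 fell. YNL146W, beside MFA2, also rose at 15 min (1.48, edgeR adjusted p = 2.27e-04), and TFB3 did not pass (0.30, edgeR adjusted p = 0.0696). BST1 and RIF2 fell at 15 min as their members did, but differed from them in later contrasts. BST1, 269 bases from STE2, fell at 15 min (log2 -0.44, edgeR adjusted p = 0.0265) and was lower than in glucose at 60 min (log2 -0.62, edgeR adjusted p = 0.00507). From 15 to 60 min BST1 did not pass (log2 -0.18, edgeR adjusted p = 0.515), while STE2 rose. RIF2, 432 bases from SST2, fell at 15 min (log2 -0.42, edgeR adjusted p = 0.0146). It rose from 15 to 60 min (0.62, edgeR adjusted p = 0.00404), where SST2 did not pass. At 60 min against glucose RIF2 did not pass (0.21, edgeR adjusted p = 0.188), while SST2 was lower.

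The 10 genes were compared in pattern over the 6 libraries as a description, with points that share libraries and strains. Since the genes were chosen for a strain difference in these same libraries, their likeness to each other, and to genes low in the deletion, is in part fixed by that choice. Each gene's Pearson r with the mean of the other 9 lay between 0.738 for AGA2 and 0.971 for NFG1. Among 2332 genes outside the 10 and the lists, with a mean count of at least 50 and an SD of at least 0.5 log2 units, those most like the mean of the 10 were FRK1 (r = 0.989), which lies near SPP1 on chromosome XVI, SCW11, which encodes a cell wall protein (0.979), MET14 (0.971), KCH1 (0.956) and RAX2 (0.943). AGA1 was most like SPP1 (0.932), which had 1, 0 and 0 counts in the deletion, and then PAD1 (0.889), FRK1 (0.841), YNL040W (0.836) and COS10 (0.831). SST2 was most like ORC3, a gene of the origin recognition complex (0.984), MSH1 (0.958), ESP1, the separase gene (0.946), YDL241W (0.946) and SCW11 (0.936). With library totals as the scaling, 3 of the 5 names for the mean, 2 for AGA1 and 3 for SST2 were kept.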

How the data were processed

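Read counts per gene from 6 NET-seq libraries were used as deposited. Per the submitters' processing notes, reads were aligned with Bowtie to sacCer3, and the sources used here do not give the version, counting tool, strand setting or gene windows. The table holds 5219 genes and 3 emptied lines, and 5116 identifiers matched a RefSeq gene table of assembly R64. Genes with a mean count of at least 10 (5186) were tested with edgeR 4.0.16 (quasi-likelihood, TMM factors) under R 4.3.3 in an additive model of genotype and condition with 2 residual degrees of freedom. Benjamini-Hochberg adjustment ran over all genes tested at 0.05. CPM used totals times TMM factors, log2 CPM a prior count of 2, and ratios of single libraries exact 95% binomial intervals. PCR duplicates cannot be recognised in such counts, so these intervals cover counting error only. Alternatives were other scalings, filters and prior counts, limma 3.58.1, DESeq2 1.42.0, a stricter threshold, and fits without a condition or library. Figures used matplotlib 3.10.9 in Python 3.11.15.

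The members and lists were chosen with earlier results of these data known. Named genes were the 10 members, list genes called between strains, the 3 highest and 3 lowest called genes of each list at 15 min, the 5 genes most like the members, AGA1 and SST2 in pattern, and measured neighbours within 500 bases. Genes named outside this rule, MSB2, STE4, PRM4, STE3, SAG1 and the list genes not analysed here, were chosen after their values were seen. Promoter and protein sequences were not used here.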

Additional observations from a re-analysis of the deposited data

Results flagged for a closer look

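MFA1 and MFA2 changed in opposite directions in the 2 strains between glucose and 60 min of galactose, with the counting interval of each strain off 0. The log2 change in the deletion minus that in the wild type was -0.59 for MFA1 and -0.42 for MFA2. This difference was not tested, since each strain and condition has 1 library.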

How the results depend on the processing

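The count of mating genes that fell at 15 min was 9 under every alternative run, including each library left out in turn. At 60 min against glucose the count called in either direction was 6, with 5 lower and 1 higher. With DESeq2 it was 5, all lower, and it ranged from 5 to 6 when a library was left out. From 15 to 60 min 7 genes rose and 0 fell. The count of rises ranged from 4 to 7 when a library was left out, the lowest without the wild-type library at 15 min. Called pathway genes outside the 10 numbered 1, and 3 with library totals only (TEC1, GIC2 and KSS1), 3 without the 60 min libraries (TEC1, CLN1 and, higher, PRM4), 3 without the 15 min libraries (TEC1, GIC2 and KSS1), and 1 to 4 when a library was left out, the highest without either library at 15 min (MSB2 as well). The cause was not tested. Fitted changes near 0 turned sign: at 60 min against glucose MFA1 to 0.050 and MFA2 to 0.075 with library totals, and to 0.057 and 0.0089 without the deletion library in glucose. When a library was left out, the change at 60 min against glucose ranged from -0.40 to 0.28 for MFA1, from -0.31 to 0.27 for MFA2 and from -0.36 to 0.20 for AFB1, and that of SST2 at 60 min against 15 min from -0.056 to 0.45. None of the values with turned sign passed the test. With library totals, 1436 genes rose and 548 fell from 15 to 60 min, beside 1056 and 835, and 58 were higher and 81 lower in the deletion, beside 57 and 38. DESeq2 called 38 higher and 12 lower between strains, and an adjusted p under 0.01 left 34 and 12. RLE factors called 53 and 25, and a fit without glucose 52 and 25. Without the 60 min libraries 87 were higher and 86 lower, and without the 15 min libraries 92 and 52. With TMM factors from genes filtered over all 6 libraries, they were 86 and 86 without 60 min, 114 and 86 without 15 min, and 41 and 21 without glucose, and called pathway genes numbered 3 (TEC1, CLN1 and, higher, PRM4), 4 (TEC1, GIC2, MSB2 and KSS1) and 1 (TEC1). The median difference between strains of the 10 genes stayed between -0.67 and -0.56 under other prior counts and scalings, and that of AGA1, AFB1 and NFG1 shrank to -1.08, -0.60 and -0.74 with a prior count of 20. The median difference in response of the 10 genes ranged from 0.094 to 0.157 at 15 min and from -0.29 to -0.18 at 60 min. The additive model already compares strains within conditions and conditions within strains. No paired analysis by replicate number was possible because the labels give none. Depth limits AFB1 most, with 11 to 59 counts per library. Leaving out each library and the other TMM filter were added after seeing the data.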

Other observations

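PRM4, a pheromone-regulated membrane protein gene, had the highest fitted difference between strains of the 13 fusion and karyogamy genes, with 432, 283 and 546 counts in the wild type and 1286, 640 and 443 in the deletion, but did not pass the test (0.59, edgeR adjusted p = 0.0619). Deletion minus wild type came to 0.90 log2 units in glucose and 0.80 at 15 min, and to 0.048 at 60 min. The gene was named after its values were seen.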
